A study of Gallus gallus with 12 samples.

Results

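Overexpression of the zinc finger transcription factor KLF4 in chick limb bud mesenchymal cells was compared with the same retroviral vector without an insert. The comparison takes the 2 libraries titled KLF4 RNA and the 2 titled Control RNA, 4 of the 12 RNA-seq libraries of a study of 5 transcription factors associated with connective tissue. It covers the 18979 of 21350 listed features that had enough counts to be tested. The question it answers is which genes differ in level between cells that carry KLF4 and cells that carry the empty vector.

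The Control cells carried RCAS-BP(A)-empty and the KLF4 cells RCAS-BP(A)-KLF4-3F. RCAS vectors are replication-competent avian retroviruses that express an insert from the viral promoter, so expression is not limited to 1 cell type. All cells were mesenchymal cells from E4.5 limb buds of the breed Lohmann Selected Leghorn, infected before they were seeded. They were kept as 10-µL droplets at high density for 5 days, a culture in which limb mesenchyme is known to form cartilage nodules among fibroblasts and some muscle cells. The RNA of 6 droplets was pooled for each extract, without sorting, so every value is a mean over mixed cells, and fewer cells of a type cannot be told apart from less RNA per cell. The 8 other libraries came in pairs from cells carrying RCAS-BP(A)-OSR1-3F, RCAS-BP(A)-OSR2-3F, RCAS-BP(A)-EGR1-3F or RCAS-BP(A)-KLF2-3F and served as further references.

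KLF4 belongs to the Krüppel-like factors, which bind GC-rich and CACCC-type elements through zinc fingers at their carboxyl end and can activate or repress transcription. In mammals it is known for the barrier of the epidermis, for goblet cells of the gut, for the response of endothelium to flow, which it shares with its relative KLF2, for restraint of cell division, and as a reprogramming factor. In the limb it has been associated with connective tissue, which gives this study its setting.

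The libraries held 51233721 and 59297870 counts in Control and 74139243 and 94891254 in KLF4, within a range of 51233721 to 106079374 over all 12. Values are CPM, counts scaled to a common library total by TMM, given for replicate 1 and then replicate 2. Limb mesenchyme genes were present in all 4 libraries, among them PRRX1 at 166 and 188 CPM in Control and 503 and 508 CPM in KLF4, the forelimb factor TBX5 at 184 and 199 CPM in Control and 186 and 166 CPM in KLF4, and the hindlimb factor TBX4 at 149 and 148 CPM in Control and 147 and 164 CPM in KLF4. The Control libraries stood apart from all others. On the first principal component, which took 41.8% of the variance, they lay at -96.04 and -75.29, the 8 libraries of the other factors between -7.471 and 30.08, and the KLF4 libraries at 37 and 38.85. On the second component (27%) the KLF4 libraries had the highest scores, 46.96 and 42.06. The replicates correlated across genes with Pearson's r of 0.9936 in Control and 0.9966 in KLF4, and both pairs differed by more than counting noise. Whether the 2 replicates of a group are from different embryos or infections is not stated in the labels. The p-values therefore cover the spread among these libraries alone. Because the Control libraries stood apart, results are also given against the mean of the OSR1, OSR2 and EGR1 groups and against KLF2, neither of which uses a Control library.

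The overexpressed gene was the most raised among genes that reached a mean of 5 CPM. KLF4 lay at 17.1 and 18.8 CPM in Control and 1292 and 1176 CPM in KLF4 libraries (log2 fold change 6.11, SE 0.11, adjusted p = 3.3e-09, edgeR's quasi-likelihood test with Benjamini-Hochberg adjustment over all genes tested, as for every adjusted p given here). A gene is called higher or lower where that p is under 0.05. It lay at 16.1 and 18.2 CPM in the KLF2 libraries and at 15.8 to 35 CPM in the 6 libraries of OSR1, OSR2 and EGR1. The KLF4 libraries stood alone, since no other library was above 34.95 CPM, and the labels hold. Counts from the cells' own gene and from the insert cannot be told apart.

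Of 25 other members of the Krüppel-like and SP family, 20 are in the deposited tables and 17 were tested. Among these, 8 were higher than in Control and 4 lower, where 28.7% of all genes tested were higher and 25.5% lower. KLF3, a repressor of the family, rose from 32.1 and 31.3 to 93.4 and 87.7 CPM (log2 fold change 1.51, SE 0.10, adjusted p = 2.3e-06), and stood at 67.3 and 54.2 CPM in the KLF2 libraries. Both KLF4 libraries were above every other library for this gene, and the difference from KLF2 also passed the test (log2 fold change 0.58, SE 0.10, adjusted p = 0.0099, and 0.059 to 0.13 without KLF4 1 and KLF4 2 in turn). KLF9, a glucocorticoid-responsive member in mammals, rose from 50 and 50.5 to 74.7 and 72.7 CPM (log2 fold change 0.55, SE 0.07, adjusted p = 0.00015) and was likewise above KLF2 at 55.7 and 51.6 CPM (log2 fold change 0.46, SE 0.07, adjusted p = 0.0073, and 0.056 to 0.11 without KLF2 2, KLF4 1 and KLF4 2 in turn). KLF8 rose from 2.7 and 3.47 to 17.5 and 17.7 CPM (log2 fold change 2.51, SE 0.36, adjusted p = 0.00068). KLF12, another repressor, rose from 158 and 142 to 244 and 253 CPM (log2 fold change 0.73, SE 0.10, adjusted p = 0.00018). The TGF-beta-inducible factors KLF10 and KLF11 changed by 0.68 and 0.79 on the log2 scale, and SP1 and SP2 by 1.7 and 1.11. For KLF8, KLF10, SP1 and SP2 all libraries of the other factors were above both Control libraries too. They lay at 5.621 to 12.26, 38.8 to 55.62, 31.55 to 75.84 and 18.61 to 26.43 CPM in turn. For KLF3, KLF9, KLF11 and KLF12 this was not so. The 4 that fell were KLF15, from 8.83 and 9.11 to 5.44 and 5.0 CPM (log2 fold change -0.78, SE 0.12, adjusted p = 0.00048), KLF7 (-0.43), SP3 (-0.35) and KLF5 (-0.41, adjusted p = 0.055 to 0.13 without Control 1, Control 2 and KLF4 2 in turn). KLF2 itself, the nearest relative among the 5 factors, was not called, with 27.4 and 39.9 CPM in Control and 29.9 and 30.3 CPM in KLF4 (log2 fold change -0.16, SE 0.28, adjusted p = 0.66). The 4 libraries overlapped for this gene. KLF1, KLF6, KLF13 and SP4 were not called either.

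**Figure D1:**
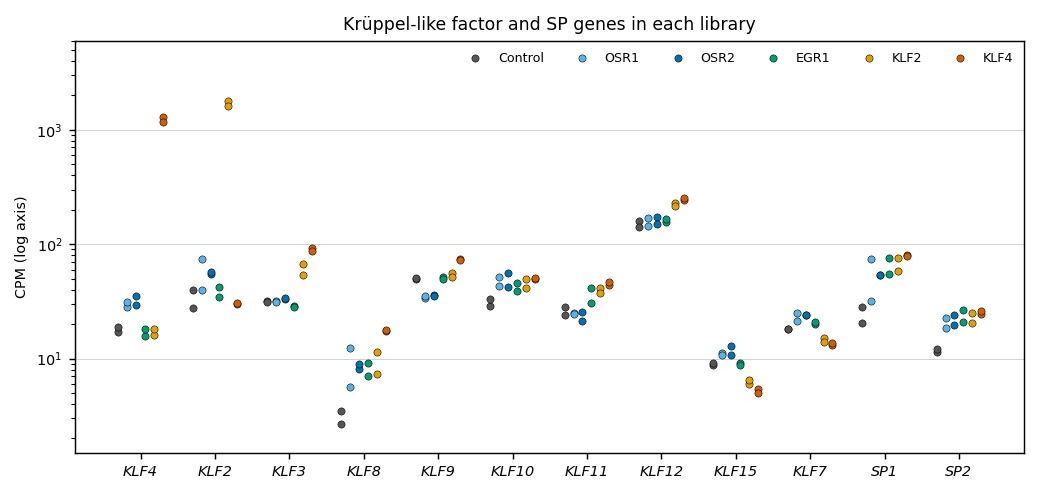
Level of 12 Krüppel-like and SP family genes in every library, in CPM on a log axis, with a colour for each group and a point for each library. KLF4 stands at 1292 and 1176 CPM in its own 2 libraries and KLF2 at 1793 and 1613 CPM in the KLF2 libraries, while KLF3 is highest in the KLF4 libraries.

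Over the whole table, 5452 genes (28.7%) were higher and 4832 (25.5%) lower in KLF4 than in Control at an adjusted p under 0.05. Of these, 2477 rose and 1512 fell by at least 2-fold, and 704 rose and 272 fell by at least 4-fold, so large rises outnumbered large falls. The median log2 fold change of all genes was -0.01. Against the mean of OSR1, OSR2 and EGR1, 2468 genes (13%) were higher and 2573 (13.6%) lower, and 784 and 538 of them by at least 2-fold. Without KLF4 replicate 1 those counts were 1280 and 1223, and without KLF4 replicate 2 they were 1397 and 1337. Of the 704 genes at least 4-fold above Control, 467 (66.3%) were higher in both KLF4 libraries than in all 10 other libraries, and 68 (25%) of the 272 genes at least 4-fold below Control were lower in both KLF4 libraries than in all others. Over all genes tested these shares were 9.03% and 7.69%. The large rises and falls were picked by their difference from Control, whose libraries are among the others. Part of this separation therefore follows from the choice. In 485 (68.9%) of the 704 all 10 factor libraries, KLF4 included, were above both Control libraries, against 25.5% of all genes tested. In 224 (82.4%) of the 272 all 10 were below both, against 21.6%. The same large rises varied within another group. Of the 704 genes, 287 (40.8%) were at least 2-fold higher in OSR1 replicate 2 than in OSR1 replicate 1, against 3.77% of all genes and 2.21% of the 272 large falls, and the part of this in the result was not tested. Among the 377 genes higher in KLF4 than in KLF2 the share was 0.265%.

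**Figure D2:**
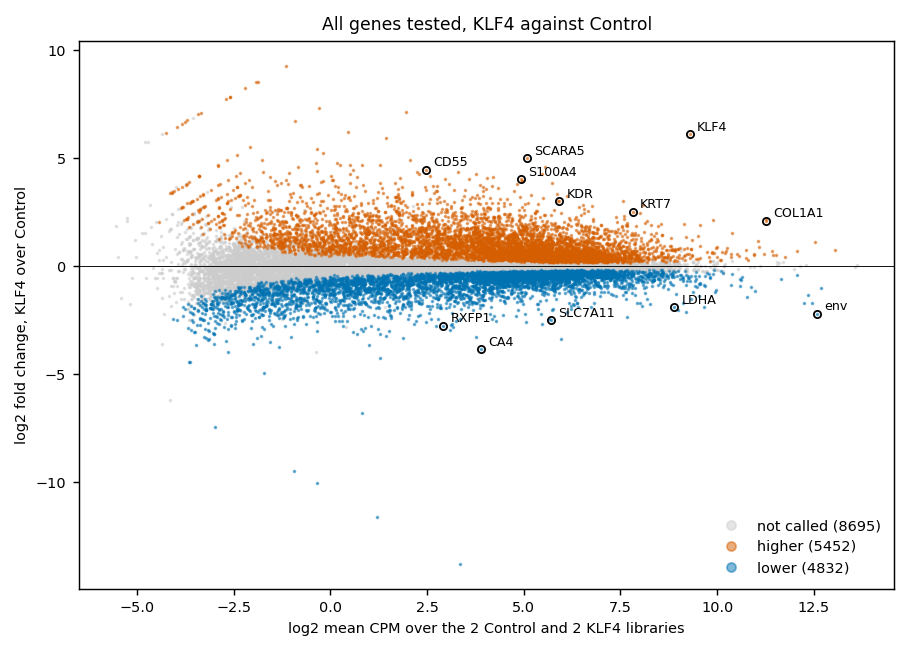
Log2 fold change of KLF4 over Control against the log2 mean CPM of the 4 libraries for the 18979 genes tested, with genes called higher in orange, called lower in blue and not called in grey. KLF4 is the highest gene at its level, and the sloping lines of points at the left are genes with no or few counts in one group.

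After KLF4 itself, the largest rises among genes with a symbol in the RefSeq table, a mean of at least 5 CPM and both KLF4 libraries above both Control libraries (41.5% of all genes tested lay above and 41.4% below), began with SCARA5, a scavenger receptor that takes up ferritin and marks fibroblast progenitors in mammals. It lay at 1.88 and 2.26 CPM in Control and 66.6 and 65 CPM in KLF4 (log2 fold change 4.99, SE 0.28, adjusted p = 5.1e-06), with 27.6 and 30.6 CPM in KLF2 and 4.84 to 11.5 CPM in the 6 OSR1, OSR2 and EGR1 libraries. The KLF4 libraries were thus the highest, the KLF2 libraries next, and Control the lowest, with no overlap between these groups. CD55, which protects cells from complement, rose from 0.563 and 0.413 to 10.5 and 10.7 CPM (log2 fold change 4.44, SE 0.23, adjusted p = 1.1e-06), with no other library above 3.001 CPM. ZBTB7C, a zinc finger repressor, rose from 1.76 and 1.88 to 33.9 and 28.5 CPM (log2 fold change 4.09, SE 0.17, adjusted p = 4.1e-07) against 10.7 and 8.94 CPM in KLF2. S100A4, a calcium-binding protein of fibroblasts, rose from 2.94 and 4.13 to 60 and 55.1 CPM (log2 fold change 4.02, SE 0.17, adjusted p = 4.6e-07), and no library outside KLF4 passed 12.76 CPM. These 4 were all higher in KLF4 than in KLF2 and than in the mean of OSR1, OSR2 and EGR1 by the test. For SCARA5 the difference from KLF2 was near the threshold (log2 fold change 1.18, SE 0.24, adjusted p = 0.044). That call was lost when any single KLF2 or KLF4 library was left out.

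LOXL4, a lysyl oxidase that cross-links collagen and elastin, rose from 1.39 and 2.58 to 36.8 and 33.1 CPM (log2 fold change 4.13, SE 0.31, adjusted p = 2.4e-05), with 22.8 and 14.8 CPM in KLF2 and at most 7.575 CPM elsewhere. FCGBP, a mucus protein in mammals, rose from 0.863 and 0.974 to 17.3 and 20.4 CPM (log2 fold change 4.36, SE 0.25, adjusted p = 1.8e-06). ECM1, an extracellular matrix protein, rose from 2.85 and 4.84 to 63.2 and 53.4 CPM (log2 fold change 3.92, SE 0.46, adjusted p = 0.00037). Neither differed from KLF2 by the test (adjusted p = 0.23 and 0.057). The homeodomain factor DLX3, which acts in epidermis and bone, rose from 0.844 and 0.974 to 13.8 and 15.6 CPM (log2 fold change 4.01, SE 0.30, adjusted p = 1.1e-05). The axon guidance ligand NTN3 rose from 3.53 and 4.19 to 61.6 and 55.8 CPM (log2 fold change 3.92, SE 0.21, adjusted p = 2.7e-06). It is the 1 gene of the 15 whose KLF4 libraries were not the highest, as the KLF2 libraries held 73.1 and 65.8 CPM. The chloride channel protein CLIC3, WBP1, the inhibitor of helix-loop-helix factors ID1 and TMEM147 rose by 3.8, 4.02, 3.84 and 3.73 (adjusted p = 0.075 without Control replicate 1) on the log2 scale. The keratin KRT6A and the bone matrix gene IBSP complete the 15 and are described with their groups. In 14 of the 15 both KLF4 libraries were above every other library, 13 were higher than the mean of OSR1, OSR2 and EGR1 and 5 higher than KLF2 by the test. The shares over all genes tested were 9.03%, 13% and 1.99%. The 15 were chosen by their rise over Control, so part of this separation follows from the choice. WBP1 and TMEM147 were not called against that mean (adjusted p = 0.14 and 0.18). In 11 of the 15 all libraries of the other factors were above both Control libraries too.

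Under the same limits, the largest falls began with CA4, a membrane-bound carbonic anhydrase, at 29.3 and 26.5 CPM in Control and 2.08 and 1.77 CPM in KLF4 (log2 fold change -3.86, SE 0.19, adjusted p = 1.1e-06). The KLF2 libraries lay at 2.04 and 2.45 CPM and the OSR1, OSR2 and EGR1 libraries at 3.32 to 6.63 CPM, so all factor libraries were below Control for this gene. ADPRHL1, a gene of heart muscle in vertebrates, fell from 26.4 and 23.4 to 2.6 and 2.51 CPM (log2 fold change -3.29, SE 0.12, adjusted p = 2.1e-07). Its KLF4 libraries were the lowest of the 12, and it was the 1 fall of the 15 that was also lower than in KLF2, at 5.65 and 5.87 CPM (log2 fold change -1.17, SE 0.12, adjusted p = 0.00097). RXFP1, the relaxin receptor, fell from 13.9 and 12.4 to 2.18 and 1.72 CPM (log2 fold change -2.76, SE 0.16, adjusted p = 1.6e-06). It lay at 6.3 to 14.8 CPM in the OSR1, OSR2 and EGR1 libraries and was lower than in these too (log2 fold change -2.4, SE 0.13, adjusted p = 1.2e-06). C8orf22 showed the same order, with 84.2 and 86.3 CPM in Control, 16.4 and 14.6 in KLF4, 17.8 and 19.2 in KLF2 and 43.3 to 88.3 in the other 6 libraries.

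The anion exchanger SLC26A4 fell from 16.6 and 14.7 to 2.37 and 2.11 CPM (log2 fold change -2.8, SE 0.19, adjusted p = 3.9e-06). The zinc importer SLC39A8 fell from 16.6 and 15.8 to 2.77 and 2.74 CPM (log2 fold change -2.55, SE 0.13, adjusted p = 1.1e-06). For both, the OSR1 and OSR2 libraries were lower than KLF4, at most 1.173 CPM, so the fall from Control was larger there. MAT1A, which makes S-adenosylmethionine, fell from 77.9 and 75.3 to 11 and 13.1 CPM (log2 fold change -2.67, SE 0.15, adjusted p = 1.3e-06). PSPH, the last enzyme of serine synthesis, fell from 53.9 and 59.7 to 9.06 and 9.61 CPM (log2 fold change -2.6, SE 0.17, adjusted p = 2.8e-06). SLC7A11, the cystine importer, fell from 89.6 and 87.4 to 14 and 17.2 CPM (log2 fold change -2.51, SE 0.12, adjusted p = 7.7e-07). CHAC1, which degrades glutathione, lay at 102 and 125 CPM in Control and 13.1 and 8.89 CPM in KLF4 (log2 fold change -3.37, SE 0.82, adjusted p = 0.013, and 0.056 to 0.085 without KLF4 1 and KLF4 2 in turn), with replicates of other groups as far apart as 39.7 and 5.398 CPM in OSR2. The cGMP-dependent kinase PRKG2, TAF4B, SPHKAP, SEZ6L and the potassium channel KCNK9 fell, with log2 fold changes of -2.54, -2.46, -2.45, -2.59 and -2.45. Of the 15 falls, 7 were lower than the mean of OSR1, OSR2 and EGR1 by the test, and in 4 both KLF4 libraries were below every other library. The shares over all genes tested were 13.6% and 7.69%. These 15 were chosen by their fall under Control, so part of this separation follows from the choice. In 13 of the 15 all libraries of the other factors were below both Control libraries too.

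**Figure D3:**
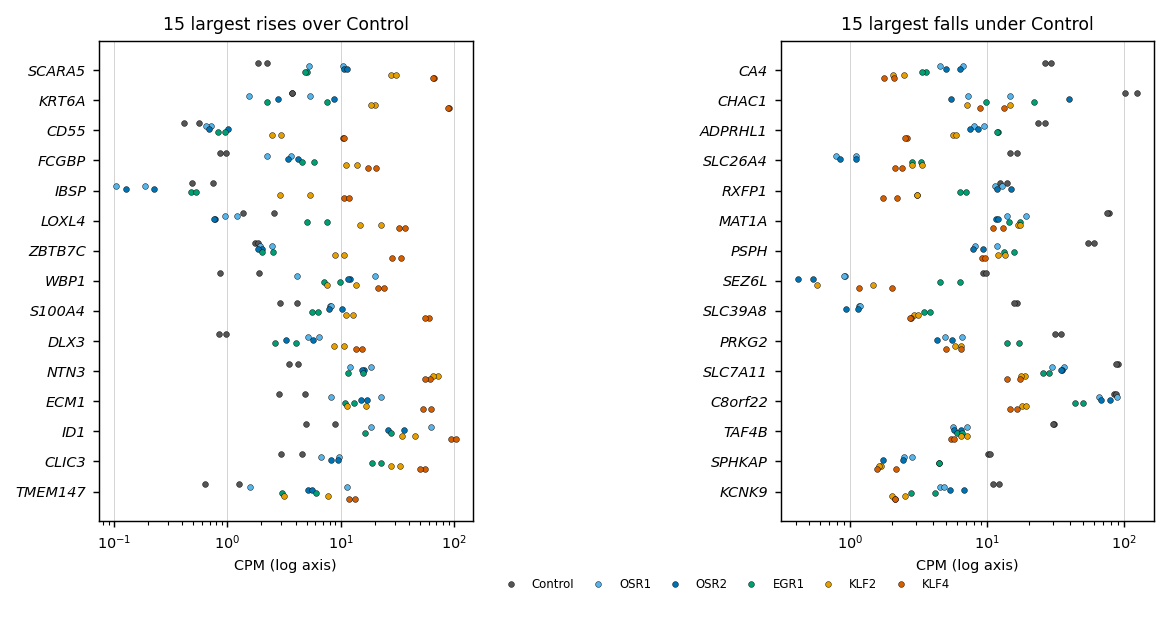
Level of the 15 largest rises and 15 largest falls in all 12 libraries, in CPM on a log axis, with a colour for each group and a point for each library. For most rises the KLF4 points lie at the top with the KLF2 points next, and for most falls the Control points lie alone at the top.

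For each gene list below, the shares over all genes tested are the background. They were 28.7% higher and 25.5% lower against Control. Against the mean of OSR1, OSR2 and EGR1 they were 13% and 13.6%, and against KLF2 1.99% and 0.674%. Keratin and epidermal genes formed the list with the highest median log2 fold change of the 33. Of 55 genes listed, 51 were tested. Of these, 33 (64.7%) were higher and 2 lower, with a median log2 fold change of 1.32. The count of higher genes was 21 without Control replicate 1, and that of lower genes was 1 without Control 1, Control 2, KLF4 1 or KLF4 2. Their summed level was 702 and 726 CPM in Control and 2053 and 1859 CPM in KLF4. KRT7, a keratin of simple epithelia, rose from 64.2 and 70.4 to 409.8 and 357 CPM (log2 fold change 2.51, SE 0.27, adjusted p = 0.00023). The KLF4 libraries were the highest of all 12 for it, with 124 and 112 CPM in KLF2 and 66.7 to 117 CPM in the other 6. KRT6A, a keratin of stressed epidermis, rose from 3.69 and 3.75 to 90.9 and 89.3 CPM (log2 fold change 4.6, SE 0.72, adjusted p = 0.0017), with 20 and 18.4 CPM in KLF2. KRT19 rose from 14.2 and 15.9 to 85.4 and 70.6 CPM (log2 fold change 2.37, SE 0.40, adjusted p = 0.0019). Keratins are a family of similar genes, and how reads that fit several members were counted is not known here.

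Other members of the list are genes of cell junctions, of the basement membrane and of the cornified envelope. PPL, which encodes periplakin, rose from 13.2 and 13.6 to 49.2 and 49 CPM (log2 fold change 1.87, SE 0.15, adjusted p = 7.8e-06). PERP, a desmosome protein, rose from 16.2 and 15.6 to 65.7 and 53.9 CPM (log2 fold change 1.91, SE 0.20, adjusted p = 7.7e-05). Both were above KLF2 too (log2 fold change 1.32, SE 0.14, adjusted p = 0.0012, and log2 fold change 1.65, SE 0.20, adjusted p = 0.0031). LAMA3, which encodes a laminin chain of epithelial basement membranes, fell from 166 and 147 to 61.9 and 73.2 CPM (log2 fold change -1.21, SE 0.10, adjusted p = 1.1e-05). The tight junction genes CLDN1 and OCLN rose by 1.66 and 2.67, the junction gene JUP by 1.84 and the envelope gene IVL by 1.54 on the log2 scale. GRHL1, a transcription factor of epidermis, rose from 5.25 and 5.28 to 16.9 and 13.7 CPM (log2 fold change 1.54, SE 0.22, adjusted p = 0.00034). TP63, the factor that defines stratified epithelium, rose from 4.0 and 3.93 to 7.75 and 6.49 CPM (log2 fold change 0.84, SE 0.15, adjusted p = 0.0011). EPCAM, at 5.27 and 4.44 CPM in Control and 7.9 and 5.51 CPM in KLF4, KRT5, at 1.09 and 1.67 CPM in Control and 1.39 and 1.19 CPM in KLF4, KRT8, at 5.44 and 7.3 CPM in Control and 10.8 and 7.9 CPM in KLF4, and GRHL2, at 0.656 and 0.776 CPM in Control and 0.704 and 0.563 CPM in KLF4, were not called. Genes that define surface epithelium were thus only partly among the rises, and the part of epithelial cells of the cultures in these values was not tested. Against the mean of OSR1, OSR2 and EGR1, 22 of the 51 were higher and 5 lower (higher in 13 without KLF4 replicate 1 and 37 without OSR1 replicate 2, and lower in 2 without KLF4 1 or KLF4 2 and 3 without OSR2 replicate 1), with 13% of all genes higher. Against KLF2, 9 were higher and none lower (higher in 4 without KLF4 replicate 1 and 5 without KLF4 replicate 2), with 1.99% of all genes higher.

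Fibrous connective tissue genes were mostly higher. Of 40 genes, all tested, 25 were higher and 4 lower than in Control (median log2 fold change 0.51). Their summed level was 29810 and 30780 CPM in Control and 44780 and 47810 CPM in KLF4. It ran from 39550 to 50640 CPM in the libraries of the other factors. PI16, which marks universal fibroblasts in mammals, rose from 4.56 and 4.26 to 51.2 and 46.9 CPM (log2 fold change 3.48, SE 0.12, adjusted p = 1.5e-07). All 10 other libraries lay at or below 10.2 CPM, so the rise set the KLF4 libraries apart from KLF2 as well (log2 fold change 2.37, SE 0.12, adjusted p = 8.5e-06). CD34, on vascular and fibroblast progenitors, rose from 1.61 and 2.06 to 6.6 and 7.14 CPM (log2 fold change 1.9, SE 0.17, adjusted p = 1.7e-05), THY1 from 47.7 and 61.8 to 194 and 175 CPM (log2 fold change 1.75, SE 0.17, adjusted p = 5.7e-05) and TNXB, a matrix protein of loose tissue, from 0.713 and 0.958 to 3.52 and 3.95 CPM (log2 fold change 2.15, SE 0.24, adjusted p = 6.2e-05). Among the collagens, COL1A1 rose from 793 and 1078 to 3822 and 4133 CPM (log2 fold change 2.09, SE 0.29, adjusted p = 0.00065), COL6A1 from 663 and 701 to 1942 and 2020 CPM (log2 fold change 1.54, SE 0.12, adjusted p = 6.3e-06) and COL6A2 from 388 and 401 to 1048 and 1047 CPM (log2 fold change 1.41, SE 0.09, adjusted p = 1.9e-06). COL3A1 and FN1, the gene of fibronectin, rose by 0.66 and 1.13. COL3A1 was called lower than the mean of OSR1, OSR2 and EGR1, though not in every fit with a library left out. Without KLF4 1 and KLF4 2 in turn, that log2 fold change was -0.30 and -0.31. The falls were COL14A1, from 2536 and 2400 to 1220 and 1321 CPM (log2 fold change -0.96, SE 0.09, adjusted p = 2.5e-05), the proteoglycan gene OGN, from 1112 and 1043 to 556 and 592 CPM (log2 fold change -0.91, SE 0.09, adjusted p = 2.5e-05), NT5E (-0.80) and LUM (-0.34, adjusted p = 0.1 to 0.16 without Control 1, Control 2, KLF4 1 and KLF4 2 in turn). DCN, PDGFRA and COL5A2 were not called, with log2 differences of -0.01, 0.06 and -0.04. Compared with the mean of OSR1, OSR2 and EGR1, COL5A2 was called lower and NT5E higher, though not in every fit with a library left out. Without KLF4 replicate 1 these log2 fold changes were -0.40 and 0.43. Against the mean of OSR1, OSR2 and EGR1, 16 were higher and 10 lower (6 without KLF4 replicate 1), 2 of the lower ones being the genes overexpressed there, OSR1 and OSR2.

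Elastic fibre genes were mostly higher than in Control. Of 24 tested, 18 were higher and 1 lower, with a median of 0.79, and the higher count was 10 without Control replicate 1. The microfibril genes FBN1 and MFAP5 rose. FBN1 rose from 324 and 319 to 1125 and 1239 CPM (log2 fold change 1.88, SE 0.12, adjusted p = 2.8e-06). MFAP5 rose from 53.1 and 56.4 to 211 and 193 CPM (log2 fold change 1.88, SE 0.09, adjusted p = 6.3e-07). ELN, which encodes elastin, rose from 89.4 and 135 to 467 and 480.2 CPM (log2 fold change 2.08, SE 0.25, adjusted p = 0.00031). EMILIN2 rose from 64.5 and 65.2 to 336 and 303 CPM (log2 fold change 2.3, SE 0.12, adjusted p = 1.1e-06). LTBP2 rose from 126 and 141 to 457 and 527 CPM (log2 fold change 1.88, SE 0.14, adjusted p = 5.8e-06). Of these 5, only EMILIN2 was also higher than in KLF2 (log2 fold change 1.33, SE 0.12, adjusted p = 0.00039). EFEMP1 fell from 301 and 305 to 181 and 178 CPM (log2 fold change -0.76, SE 0.09, adjusted p = 8.6e-05). Against the mean of OSR1, OSR2 and EGR1 the list was divided, with 4 higher and 7 lower (lower in 4 without KLF4 replicate 1, and higher in 8 without OSR1 replicate 2), and ELN was not called (log2 fold change -0.60, SE 0.20, adjusted p = 0.065). FBLN5, needed for elastic fibre assembly, was above Control at 124 and 128 against 155 and 161 CPM (log2 fold change 0.32, SE 0.07, adjusted p = 0.0022) and below that mean (log2 fold change -1.1, SE 0.05, adjusted p = 3.7e-07).

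Smooth muscle contractile genes were also higher than in Control, 15 of 26 against 4 lower. ACTG2 rose from 48.8 and 65.1 to 287 and 271 CPM (log2 fold change 2.29, SE 0.24, adjusted p = 0.00019). TAGLN rose from 86.2 and 122 to 388 and 354 CPM (log2 fold change 1.83, SE 0.22, adjusted p = 0.00024). The pericyte proteoglycan gene CSPG4 rose from 149 and 160.2 to 549 and 565 CPM (log2 fold change 1.85, SE 0.26, adjusted p = 0.00069). The coactivator MYOCD, which drives this programme, fell from 5.21 and 5.98 to 2.99 and 3.24 CPM (log2 fold change -0.84, SE 0.14, adjusted p = 0.00068). Its partner SRF rose from 30.9 and 40.1 to 91.9 and 92.4 CPM (log2 fold change 1.38, SE 0.23, adjusted p = 0.0014). PLN, phospholamban, fell from 4.18 and 4.56 to 0.406 and 0.573 CPM (log2 fold change -3.14, SE 0.23, adjusted p = 5.5e-06). Against the mean of OSR1, OSR2 and EGR1 the direction turned, with 1 of 26 higher and 13 lower (higher in 2 without EGR1 replicate 2), and the lower ones include ACTA2 (-0.54) and CNN1 (-0.74).

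**Figure D4:**
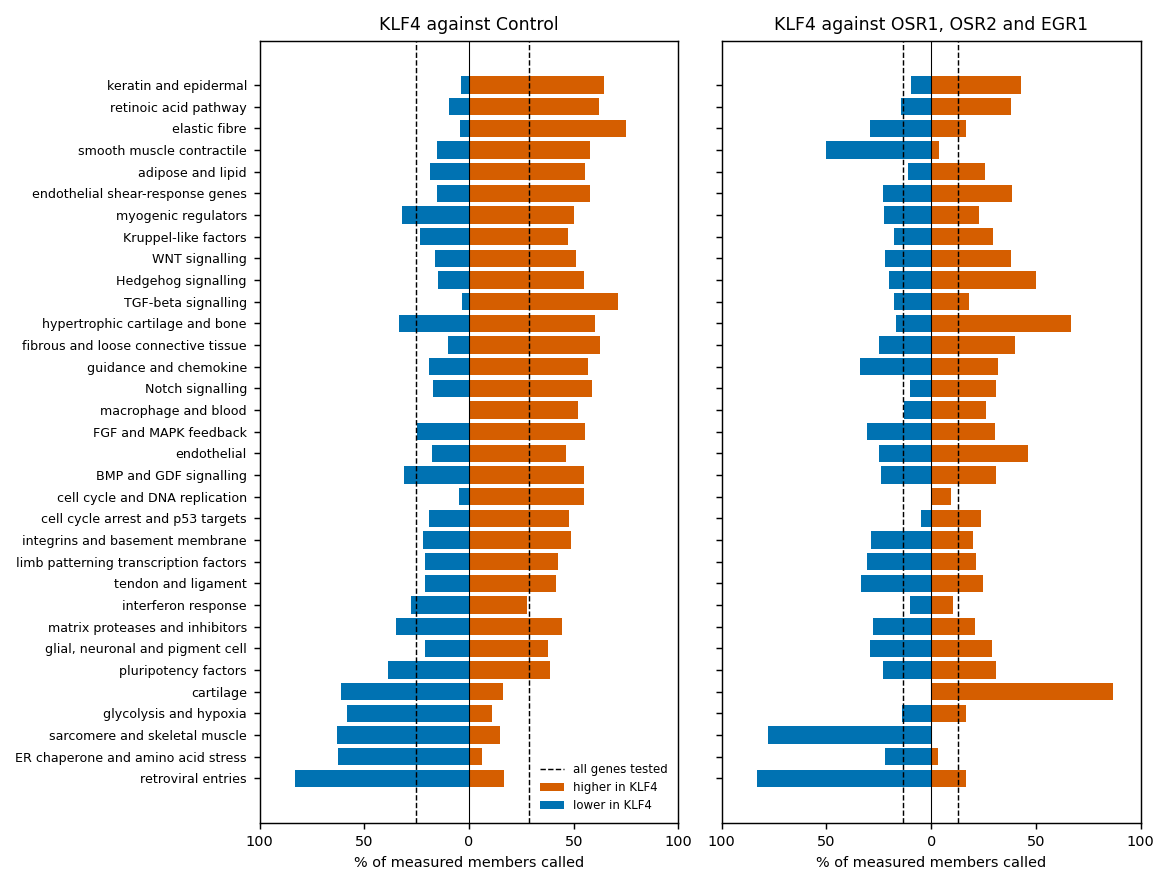
Share of the tested members of each gene list called higher (orange, right) and lower (blue, left), in percent, in KLF4 against Control (left panel) and against the mean of OSR1, OSR2 and EGR1 (right panel), with dashed lines at the shares over all genes tested. Against Control, elastic fibre and TGF-beta genes have the largest shares higher, and cartilage genes turn from mostly lower in the left panel to mostly higher in the right one.

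Cartilage genes gave opposite results against the 2 kinds of reference. Against Control, 19 of 31 tested (37 listed) were lower and 5 higher (median -0.48), the higher count being 2 without Control 1 or KLF4 1. Relative to OSR1, OSR2 and EGR1 together, 27 of 31 were higher and none lower (median 1.08). That mean joins groups that differ. The summed level of the list was 19630 and 17420 CPM in KLF4, 4871 to 7871 CPM in the OSR1 and OSR2 libraries and 26570 and 22340 CPM in EGR1. The KLF4 libraries were thus above the OSR1 and OSR2 libraries and below the EGR1 libraries in this sum, and a test against each group was not made. Against KLF2 only 1 differed, CLEC3A (log2 fold change 0.67, SE 0.13, adjusted p = 0.027, and 0.098 to 0.29 without KLF2 2, KLF4 1 and KLF4 2 in turn). The collagen gene COL9A1 lay at 2792 and 2824 CPM in Control and 1397 and 1106 CPM in KLF4 (log2 fold change -1.17, SE 0.22, adjusted p = 0.0024), with 1434 and 1254 CPM in KLF2 and 146 to 1949 CPM in the OSR1, OSR2 and EGR1 libraries. Control was therefore highest, EGR1 came next at 1949 and 1775 CPM, KLF2 and KLF4 lay below these, and OSR1 and OSR2 were lowest, at no more than 407.8 CPM. Matrilin 1, encoded by MATN1, fell from 918 and 977 to 364 and 284 CPM (log2 fold change -1.55, SE 0.24, adjusted p = 0.00099). The proteoglycan gene EPYC fell from 170.4 and 164 to 51.7 and 38.5 CPM (log2 fold change -1.89, SE 0.18, adjusted p = 6.5e-05). PAPSS2, which makes the sulfate donor for proteoglycans, fell from 285 and 277 to 142 and 131 CPM (log2 fold change -1.04, SE 0.11, adjusted p = 5.7e-05).

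The master regulator of cartilage, SOX9, was not called against Control, at 364 and 374 CPM in Control and 413 and 356 CPM in KLF4 (log2 fold change 0.06, SE 0.14, adjusted p = 0.74). Its partners SOX6 and SOX5 fell. SOX6 fell from 26.4 and 26.2 to 12.2 and 13.7 CPM (log2 fold change -1.02, SE 0.16, adjusted p = 0.00044). SOX5 fell from 103 and 96.2 to 66.2 and 64.7 CPM (log2 fold change -0.61, SE 0.11, adjusted p = 0.0013). SOX9 was higher than in the mean of OSR1, OSR2 and EGR1, where it lay at 93.6 to 487 CPM (log2 fold change 1.08, SE 0.12, adjusted p = 5.3e-05). The highest of these libraries was above both KLF4 libraries, and a test against each group was not made. COL2A1, the main collagen of cartilage, lay at 3887 and 5100 CPM in Control and 5011 and 4112 CPM in KLF4 and overlapped between the groups (log2 fold change 0.02, SE 0.18, adjusted p = 0.93). MATN4 rose from 654 and 792 to 1279 and 1277 CPM (log2 fold change 0.82, SE 0.17, adjusted p = 0.0028). ACAN, the gene of aggrecan, lay at 1874 and 1818 CPM in Control and 1230 and 1241 CPM in KLF4 (log2 fold change -0.58, SE 0.18, adjusted p = 0.02, and 0.059 to 0.086 without Control 1, Control 2, KLF4 1 and KLF4 2 in turn).

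Genes of hypertrophic cartilage and bone were divided. Of 30 tested, 18 were higher and 10 lower than in Control, and the lower count was 4 without Control 2 or KLF4 2 and 6 without Control replicate 1. The bone matrix genes IBSP, SPP1 and BGLAP rose. IBSP rose from 0.488 and 0.743 to 10.7 and 11.9 CPM (log2 fold change 4.19, SE 0.34, adjusted p = 1.4e-05). SPP1 rose from 15.7 and 18.8 to 37.6 and 40.2 CPM (log2 fold change 1.17, SE 0.14, adjusted p = 9.4e-05). BGLAP rose from 1.29 and 1.95 to 7.17 and 8.02 CPM (log2 fold change 2.22, SE 0.33, adjusted p = 0.00057). IBSP stood at 5.4 and 2.91 CPM in KLF2 (log2 fold change 1.44, SE 0.29, adjusted p = 0.032, and 0.15 to 0.2 without KLF2 2, KLF4 1 and KLF4 2 in turn) and at 0.104 to 0.526 CPM in the other 6 factor libraries, so the 2 groups carrying a Krüppel-like factor were above all others. MMP9 rose from 4.41 and 5.25 to 28.7 and 28.3 CPM (log2 fold change 2.56, SE 0.21, adjusted p = 1.5e-05). The growth factor gene BMP6 rose from 10.5 and 12.2 to 26 and 24.1 CPM (log2 fold change 1.14, SE 0.18, adjusted p = 0.00051). MMP13 fell from 27.5 and 31 to 15.5 and 15.8 CPM (log2 fold change -0.90, SE 0.12, adjusted p = 0.00022). STC2 fell from 830.4 and 802 to 206 and 198 CPM (log2 fold change -2.02, SE 0.07, adjusted p = 1.4e-07). VEGFA fell from 98 and 102 to 51.6 and 52.7 CPM (log2 fold change -0.94, SE 0.09, adjusted p = 2.5e-05). MMP13 and VEGFA were called higher than the mean of OSR1, OSR2 and EGR1, though not in every fit with a library left out. Without KLF4 1 and KLF4 2 in turn, these log2 fold changes were 0.48 and 0.45 for MMP13 and 0.27 and 0.24 for VEGFA. The bone factor RUNX2, at 25.7 and 27.2 CPM in Control and 29.9 and 31.5 CPM in KLF4, and the hypertrophic collagen gene COL10A1, at 14.4 and 16.3 CPM in Control and 23.4 and 17 CPM in KLF4, were not called, and RUNX3 rose from 5.74 and 7.18 to 13 and 14.1 CPM (log2 fold change 1.07, SE 0.19, adjusted p = 0.00091). With the mean of OSR1, OSR2 and EGR1 as reference, 20 of the 30 were higher and 5 lower (lower in 2 without KLF4 replicate 1).

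Tendon genes showed no common direction, with 10 of 24 higher and 5 lower than in Control. Compared with the mean of OSR1, OSR2 and EGR1, 6 were higher and 8 lower. The tendon factor MKX fell from 218 and 214 to 134 and 142 CPM (log2 fold change -0.65, SE 0.09, adjusted p = 0.00027). TNMD rose from 106 and 118 to 147 and 152 CPM (log2 fold change 0.42, SE 0.09, adjusted p = 0.0025). It was called lower than the mean of OSR1, OSR2 and EGR1, though not in every fit with a library left out. Without KLF4 1 and KLF4 2 in turn, that log2 fold change was -0.24 and -0.28. SCX lay at 1.44 and 1.73 CPM in Control and 7.97 and 6.38 CPM in KLF4 (log2 fold change 2.17, SE 0.50, adjusted p = 0.0075, and 0.058 without Control replicate 1).

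Genes of the muscle sarcomere were mostly lower in KLF4 than in Control and than in the mean of OSR1, OSR2 and EGR1. Of 54 tested (63 listed), 34 (63%) were lower and 8 higher than in Control (median -0.49), the higher count being 4 without KLF4 replicate 2 and 5 without Control replicate 1. In the comparison with OSR1, OSR2 and EGR1, 42 (77.8%) were lower and none higher, where 13.6% of all genes were lower and 13% higher. Against KLF2, 10 (18.5%) were lower and none higher (0 without KLF4 1 or KLF4 2, 1 without KLF2 replicate 2 and 5 without KLF2 replicate 1), where 0.674% of all genes were lower. The summed level was 2970 and 3110 CPM in Control and 2411 and 2487 CPM in KLF4. The troponin gene TNNT3 fell from 118 and 119 to 36.8 and 34.4 CPM (log2 fold change -1.73, SE 0.10, adjusted p = 1.8e-06). The myosin-binding protein gene MYBPC3 fell from 44.9 and 44.7 to 14.9 and 16.4 CPM (log2 fold change -1.52, SE 0.09, adjusted p = 1.6e-06). ACTN2, which anchors actin in the Z-disc, fell from 254 and 239 to 123 and 129.6 CPM (log2 fold change -0.96, SE 0.08, adjusted p = 1.3e-05). TNNT2 fell from 72.2 and 81.9 to 37.5 and 38.9 CPM (log2 fold change -1.01, SE 0.09, adjusted p = 1.1e-05) and was below the OSR1, OSR2 and EGR1 libraries, at 86 to 134 CPM (log2 fold change -1.53, SE 0.07, adjusted p = 2.5e-07), and below KLF2, at 56 and 57 CPM (log2 fold change -0.56, SE 0.09, adjusted p = 0.0063, and 0.056 to 0.11 without KLF4 1 and KLF4 2 in turn). Among the regulators, the muscle determination factor MYOD1 fell from 13.3 and 14.6 to 7.81 and 5.64 CPM (log2 fold change -1.06, SE 0.24, adjusted p = 0.0048). RBM24, a splicing factor of muscle, fell from 92.3 and 84.9 to 41.9 and 42.5 CPM (log2 fold change -1.07, SE 0.12, adjusted p = 6.4e-05). MEF2B rose from 1.91 and 2.46 to 11.8 and 11.6 CPM (log2 fold change 2.42, SE 0.27, adjusted p = 8.8e-05). Over the list of myogenic regulators 11 of 22 were higher and 7 lower, so it did not share the direction of the sarcomere genes.

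Markers of other cell types moved too, and their part in the other results was not tested. Of 28 endothelial genes tested (32 listed), 13 were higher and 5 lower (3 without Control 1 or KLF4 2), with a summed level of 575 and 562 CPM in Control and 683 and 696 CPM in KLF4. KDR, the main receptor for VEGF, rose from 13.5 and 13.4 to 109 and 106 CPM (log2 fold change 3.0, SE 0.10, adjusted p = 1.2e-07), with 28.1 and 23.4 CPM in KLF2 and 12.3 to 13.4 CPM in the 6 others. The KLF4 libraries thus stood alone at the top for KDR. CLDN5 rose from 18.5 and 20.3 to 66.7 and 68.2 CPM (log2 fold change 1.8, SE 0.10, adjusted p = 1.1e-06). PLVAP rose from 3.19 and 4.01 to 29.6 and 33.6 CPM (log2 fold change 3.13, SE 0.22, adjusted p = 7.1e-06). CDH5, which joins endothelial cells, rose from 1.07 and 1.02 to 4.96 and 4.74 CPM (log2 fold change 2.21, SE 0.30, adjusted p = 0.00023). PECAM1, another endothelial marker, fell from 109.7 and 103 to 43.5 and 42 CPM (log2 fold change -1.32, SE 0.14, adjusted p = 7.5e-05). The guidance receptor ROBO4 fell from 1.89 and 2.28 to 0.419 and 0.297 CPM (log2 fold change -2.55, SE 0.30, adjusted p = 8.7e-05), and FLT1 and TEK were not called, with log2 differences of -0.34 and 0.09. Endothelial genes therefore did not move together. Compared with the mean of OSR1, OSR2 and EGR1, 13 of the 28 were higher and 7 lower. Of 26 genes that KLF2 and KLF4 are known to control in mammalian endothelium under flow, 15 were higher and 4 lower (lower in 0 without KLF4 replicate 2, 1 without Control replicate 1 and 2 without KLF4 replicate 1). The list also holds genes that flow lowers, such as EDN1, so its counts have no common foreseen direction. Of the 26, 10 were higher and 6 lower than the mean of OSR1, OSR2 and EGR1, where 13% and 13.6% of all genes were. In the comparison with KLF2, 2 were higher and 1 lower, the lower being KLF2 itself. The calcium channel gene ITPR3 rose from 22 and 23.2 to 153 and 148 CPM (log2 fold change 2.74, SE 0.16, adjusted p = 4.4e-06). The anticoagulant receptor gene THBD rose from 1.37 and 1.95 to 8.63 and 8.38 CPM (log2 fold change 2.35, SE 0.27, adjusted p = 8.6e-05). TMEM100 rose from 20.7 and 24.6 to 87.4 and 89 CPM (log2 fold change 1.96, SE 0.18, adjusted p = 4.2e-05). EDN1, which flow lowers in mammals, was not called (log2 fold change -0.44, SE 0.17, adjusted p = 0.054), nor was S1PR1 (0.03). The change of EDN1 kept its sign in 12 alternative fits (-0.50 to -0.37), and 5 of these called it lower.

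Macrophage and blood genes summed to 99.2 and 99.4 CPM in Control and 144 and 141 CPM in KLF4, and 12 of 23 tested (32 listed) were higher (6 without KLF4 replicate 1 and 7 without Control replicate 2) and none lower. A globin entry, HBG2, gave the lowest adjusted p, at 4.33 and 4.99 CPM in Control and 21.9 and 27.9 CPM in KLF4 (log2 fold change 2.42, SE 0.16, adjusted p = 3.5e-06). The pan-leukocyte gene PTPRC, at 6.42 and 7.16 CPM in Control and 7.25 and 7.33 CPM in KLF4, and the macrophage factor SPI1, at 1.26 and 0.991 CPM in Control and 1.37 and 1.09 CPM in KLF4, were not called. Compared with the mean of OSR1, OSR2 and EGR1, 6 of the 23 macrophage and blood genes were higher and 3 lower. Their median log2 fold change was 0.02 there and 0.41 against Control. Glial, neuronal and pigment cell genes summed to 307 and 296 CPM in Control and 569.5 and 596 CPM in KLF4, with 9 of 24 tested (30 listed) higher and 5 lower (lower in 2 without Control replicate 1 and 3 without Control 2, KLF4 1 or KLF4 2). The median log2 fold change of this list was 0.03, with 37.5% higher and 20.8% lower, where all genes tested had 28.7% and 25.5%. Compared with the mean of OSR1, OSR2 and EGR1, 7 of these 24 were higher and 7 lower. DCX, a microtubule protein of migrating neurons, rose from 87.2 and 83.5 to 302 and 338 CPM (log2 fold change 1.91, SE 0.10, adjusted p = 1.1e-06). Most of the difference between the summed levels of the list came from DCX. STMN2, another neuronal microtubule gene, rose from 2.76 and 2.36 to 28.4 and 21.8 CPM (log2 fold change 3.3, SE 0.16, adjusted p = 8.7e-07), while no other library was above 4.031 CPM. SOX10, the defining factor of glia, lay at 0.0563 and 0.264 CPM in Control, from few counts, and at 1.45 and 1.17 CPM in KLF4, and was called higher. Of 27 adipose and lipid genes, 15 were higher and 5 lower than in Control, and 7 higher and 3 lower than the mean of OSR1, OSR2 and EGR1. Their summed level was 1134 and 1121 CPM in Control and 1586 and 1604 CPM in KLF4. It ran from 1281 to 1642 CPM in the libraries of the other factors. The adipocyte factor PPARG fell from 7.63 and 8.14 to 2.67 and 2.13 CPM (log2 fold change -1.72, SE 0.18, adjusted p = 4.3e-05). SREBF1, which drives lipid synthesis, rose from 22.1 and 33.8 to 135 and 136 CPM (log2 fold change 2.27, SE 0.41, adjusted p = 0.0027).

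**Figure D5:**
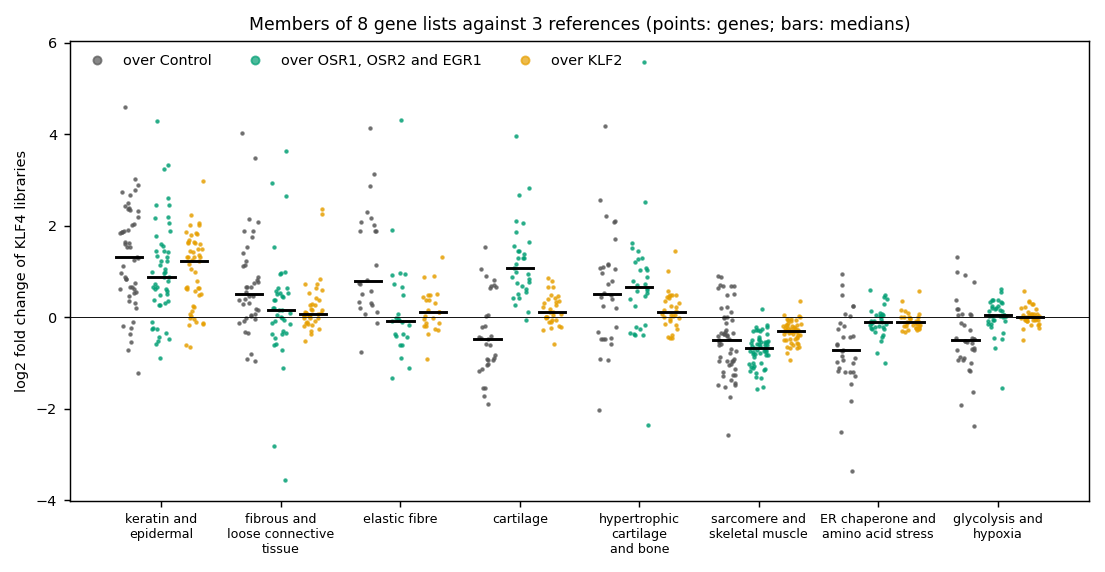
Log2 fold change of every tested member of 8 gene lists in KLF4 over Control (grey), over the mean of OSR1, OSR2 and EGR1 (green) and over KLF2 (orange), with a point for each gene and a bar at each median. Cartilage genes lie mostly below 0 against Control and above 0 against OSR1, OSR2 and EGR1, sarcomere genes lie mostly below 0 against all 3 references, and ER chaperone and glycolysis genes lie below 0 against Control and near 0 against the others.

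Among BMP signalling genes, 23 of 42 were higher and 13 lower than in Control. Of the ligands, BMP5 rose from 27.7 and 26.2 to 124 and 113 CPM (log2 fold change 2.14, SE 0.09, adjusted p = 3e-07) and was above KLF2, at 61.3 and 60.5 CPM (log2 fold change 0.96, SE 0.09, adjusted p = 0.00027). BMP4 rose from 9.6 and 10.9 to 30.7 and 29.4 CPM (log2 fold change 1.55, SE 0.17, adjusted p = 6.6e-05). BMP7 rose from 6.75 and 6.47 to 13.6 and 12.2 CPM (log2 fold change 0.97, SE 0.17, adjusted p = 0.00096). The ligands GDF10 and BMP3 fell. GDF10 fell from 166 and 156 to 65.8 and 63.6 CPM (log2 fold change -1.32, SE 0.12, adjusted p = 2.2e-05). BMP3 fell from 22.8 and 24.8 to 11.2 and 9.62 CPM (log2 fold change -1.19, SE 0.12, adjusted p = 4.2e-05). Of the antagonists, GREM1 fell from 16.8 and 15.9 to 6.34 and 6.61 CPM (log2 fold change -1.33, SE 0.11, adjusted p = 1e-05). CHRDL1 fell from 56.7 and 51.4 to 26.3 and 23.9 CPM (log2 fold change -1.11, SE 0.10, adjusted p = 1.4e-05). FSTL3 rose from 0.563 and 0.875 to 6.29 and 5.51 CPM (log2 fold change 3.03, SE 0.30, adjusted p = 3.7e-05). The direct target ID1 rose from 4.97 and 8.87 to 95.1 and 104 CPM (log2 fold change 3.84, SE 0.55, adjusted p = 0.001). ID2 rose from 89.9 and 99.2 to 168 and 172 CPM (log2 fold change 0.85, SE 0.12, adjusted p = 0.00023), and the inhibitory SMAD6 and SMAD7 rose by 1.05 and 0.70. ID1 varied within other groups, at 18.49 and 62.63 CPM in the OSR1 replicates. The BMP list had 13 of 42 higher and 10 lower against the mean of OSR1, OSR2 and EGR1.

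TGF-beta signalling genes were mostly higher, 20 of 28 against 1 lower (lower in 0 without Control 1, Control 2, KLF4 1 or KLF4 2). All 3 ligands rose. TGFB1 rose from 6.87 and 11.5 to 84.4 and 79.6 CPM (log2 fold change 3.15, SE 0.42, adjusted p = 0.00065). TGFB2 rose from 172 and 191 to 249.8 and 257 CPM (log2 fold change 0.48, SE 0.07, adjusted p = 0.00041). TGFB3 rose from 352 and 384 to 633 and 649 CPM (log2 fold change 0.80, SE 0.08, adjusted p = 2.9e-05). The receptor gene TGFBR2 rose by 0.73 and TGFBR1 was not called (-0.04). The activin subunit gene INHBA rose from 42.6 and 46.4 to 96.1 and 89.3 CPM (log2 fold change 1.06, SE 0.09, adjusted p = 1.5e-05). It was higher than in KLF2 too (log2 fold change 0.58, SE 0.09, adjusted p = 0.0086, and 0.12 without KLF4 replicate 1). The pathway target PMEPA1 rose from 36.8 and 42.9 to 95.3 and 94.7 CPM (log2 fold change 1.25, SE 0.16, adjusted p = 0.00028). Over all genes tested, 13% were higher and 13.6% lower than the mean of OSR1, OSR2 and EGR1, and in this list 17.9% each. Relative to OSR1, OSR2 and EGR1 together, the list had 5 higher and 5 lower of 28 (higher in 8 without OSR1 replicate 2, and lower in 1 without KLF4 replicate 1 and 2 without KLF4 replicate 2).

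WNT signalling genes had 28 of 55 tested (62 listed) higher and 9 lower. The ligands WNT2B and WNT9A rose. WNT2B rose from 0.469 and 0.594 to 5.22 and 4.7 CPM (log2 fold change 3.21, SE 0.25, adjusted p = 7.8e-06). WNT9A rose from 22.4 and 22.7 to 45.7 and 44 CPM (log2 fold change 0.99, SE 0.08, adjusted p = 8.8e-06). WNT11 fell from 82.7 and 78.6 to 40.4 and 46.5 CPM (log2 fold change -0.89, SE 0.12, adjusted p = 0.00016). The feedback target AXIN2 rose from 20.5 and 21.2 to 39.9 and 41.1 CPM (log2 fold change 0.96, SE 0.09, adjusted p = 2.4e-05). The nuclear effector LEF1 rose from 7.65 and 7.74 to 18.4 and 16.2 CPM (log2 fold change 1.17, SE 0.13, adjusted p = 5.4e-05). Secreted antagonists were divided. DKK1 rose from 0.863 and 1.42 to 9.51 and 7.22 CPM (log2 fold change 2.86, SE 0.41, adjusted p = 0.0006). FRZB fell from 924 and 945 to 416 and 386 CPM (log2 fold change -1.22, SE 0.10, adjusted p = 1.1e-05). SFRP2, another antagonist, fell as well (-0.61). The WNT list had 21 of 55 higher and 12 lower against the mean of OSR1, OSR2 and EGR1. In the Notch pathway 17 of 29 were higher and 5 lower (lower in 3 without KLF4 1 or KLF4 2). The target HEYL rose from 1.29 and 1.65 to 16.5 and 16.9 CPM (log2 fold change 3.5, SE 0.20, adjusted p = 1.6e-06). The ligand gene JAG1 rose from 60.1 and 61.6 to 143 and 144 CPM (log2 fold change 1.24, SE 0.10, adjusted p = 8.8e-06). The receptor gene NOTCH1 rose from 67.6 and 71.6 to 194 and 203 CPM (log2 fold change 1.51, SE 0.24, adjusted p = 0.0011). None of these 3 differed from KLF2 by the test. The Notch list had 9 of 29 higher and 3 lower against the mean of OSR1, OSR2 and EGR1.

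FGF and MAPK feedback genes had 20 of 36 higher and 9 lower. The feedback genes ETV4, ETV5, DUSP4 and DUSP6 rose by 1.44, 1.86, 1.44 and 1.08, ETV4 from 14.5 and 15.3 to 39.4 and 41.5 CPM (log2 fold change 1.44, SE 0.10, adjusted p = 2.9e-06). FGFBP1, which frees FGF ligands from matrix, rose from 0.563 and 0.842 to 6.02 and 5.47 CPM (log2 fold change 3.02, SE 0.35, adjusted p = 9.4e-05) and was the member that differed most from KLF2, at 0.782 and 0.679 CPM (log2 fold change 2.97, SE 0.33, adjusted p = 0.0016). The ligands FGF2 and FGF9 and the receptor gene FGFR3 fell (-0.50, -0.77 and -0.91 on the log2 scale). This list had 11 of 36 higher and 11 lower against the mean of OSR1, OSR2 and EGR1. It includes EGR1, which is overexpressed in a group of that mean. The summed level of the list was 13480 and 11190 CPM in the EGR1 libraries and 3616 and 3523 CPM in KLF4. In the hedgehog pathway 11 of 20 were higher (6 without KLF4 replicate 2) and 3 lower. GLI1, a direct target, rose from 13.5 and 17.2 to 53 and 51.6 CPM (log2 fold change 1.77, SE 0.25, adjusted p = 0.00057), whereas the targets PTCH1 and HHIP fell (-0.53 and -0.73). The hedgehog list had 10 of 20 higher and 4 lower against the mean of OSR1, OSR2 and EGR1. Retinoic acid genes had a median of 1.05, with 13 of 21 higher and 2 lower (lower in 1 without Control 1, KLF4 1 or KLF4 2). The carrier gene CRABP2 rose from 13.2 and 16.2 to 69.7 and 71.5 CPM (log2 fold change 2.27, SE 0.12, adjusted p = 1.1e-06). The retinol uptake receptor STRA6 rose from 4.52 and 4.79 to 17.6 and 19.1 CPM (log2 fold change 1.98, SE 0.14, adjusted p = 4.9e-06). The degrading enzyme CYP26B1 rose from 42.4 and 47.8 to 101 and 100.4 CPM (log2 fold change 1.16, SE 0.09, adjusted p = 9.2e-06). The synthetic enzyme gene ALDH1A2 fell from 27.8 and 25.8 to 18.3 and 18.2 CPM (log2 fold change -0.55, SE 0.11, adjusted p = 0.002). ALDH1A3, of the same function, rose from 115 and 119 to 234 and 250.5 CPM (log2 fold change 1.05, SE 0.11, adjusted p = 3.5e-05). The retinoic acid list had 8 of 21 higher and 3 lower against the mean of OSR1, OSR2 and EGR1, with a median of 0.22. ALDH1A2 was also lower than in KLF2 (log2 fold change -0.67, SE 0.11, adjusted p = 0.0099, and 0.073 to 0.12 without KLF2 2, KLF4 1 and KLF4 2 in turn).

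Guidance and chemokine genes had 30 of 53 higher and 10 lower. Beside NTN3, its receptor family member UNC5B rose from 20.7 and 24.1 to 90.9 and 88.7 CPM (log2 fold change 2.0, SE 0.13, adjusted p = 3.2e-06). The ephrin receptor EPHB1 rose from 64.7 and 74 to 314 and 318 CPM (log2 fold change 2.19, SE 0.14, adjusted p = 3.7e-06). CXCL14 fell from 385 and 378 to 189.6 and 198 CPM (log2 fold change -0.98, SE 0.08, adjusted p = 6.6e-06). HGF, which draws muscle precursors into the limb, fell from 18.7 and 17.9 to 6.59 and 6.88 CPM (log2 fold change -1.44, SE 0.14, adjusted p = 2.2e-05). This list had 17 of 53 higher and 18 lower against the mean of OSR1, OSR2 and EGR1, with a median of 0.06. Limb patterning factors were less uniform, with 22 of 52 higher and 11 lower (lower in 7 without Control 1 or KLF4 1). PRRX1, given above, rose (log2 fold change 1.52, SE 0.09, adjusted p = 1.6e-06), the msh factors MSX1 and MSX2 rose by 2.08 and 1.16, and TBX2 and TBX3 by 1.73 and 1.32. BARX2 fell from 44.4 and 46.5 to 16.5 and 13.5 CPM (log2 fold change -1.6, SE 0.14, adjusted p = 1.6e-05). NKX3-2, which promotes cartilage in the chick, fell from 32.9 and 38.3 to 15.8 and 14.4 CPM (log2 fold change -1.24, SE 0.20, adjusted p = 0.00081). The limb patterning list had 11 of 52 higher and 16 lower against the mean of OSR1, OSR2 and EGR1. No member of this list differed from KLF2 by edgeR's test. TBX4, TBX5 and the hindlimb factor PITX1, which separate leg from wing, were not called against Control (0.07, -0.12 and -0.25).

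Among matrix proteases and their inhibitors, 19 of 43 were higher and 15 lower. SERPINH1, the collagen chaperone HSP47, fell from 2510 and 2613 to 977 and 891 CPM (log2 fold change -1.46, SE 0.09, adjusted p = 1.9e-06). The inhibitors TIMP2 and TIMP3 rose. TIMP2 rose from 101 and 129 to 459.5 and 443 CPM (log2 fold change 1.98, SE 0.16, adjusted p = 1.5e-05). TIMP3 rose from 39 and 44.4 to 324 and 346 CPM (log2 fold change 3.01, SE 0.32, adjusted p = 0.00021), while TIMP4 fell (-0.57). ADAMTS15, which cleaves large proteoglycans, rose from 38.6 and 43.1 to 182 and 182 CPM (log2 fold change 2.16, SE 0.14, adjusted p = 3.5e-06). This list had 9 of 43 higher and 12 lower against the mean of OSR1, OSR2 and EGR1. Integrin and basement membrane genes had 22 of 45 higher and 10 lower. ITGB6, the epithelial subunit of a receptor that activates latent TGF-beta, rose from 4.28 and 4.59 to 38 and 37.3 CPM (log2 fold change 3.08, SE 0.11, adjusted p = 1.8e-07) and was above KLF2, at 10.6 and 9.44 CPM (log2 fold change 1.91, SE 0.11, adjusted p = 1.9e-05). The basement membrane collagens COL4A1 and COL4A2 rose by 0.89 and 1.04 over Control. Both were called lower than the mean of OSR1, OSR2 and EGR1, though not in every fit with a library left out. Of the 45 genes, 9 were higher and 13 lower than that mean.

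Genes of the endoplasmic reticulum chaperones and of the amino acid stress response were lower than in Control, 20 of 32 against 2 higher (higher in 0 without Control replicate 1 and 1 without KLF4 1 or KLF4 2), with a median of -0.72. HSPA5, the chaperone BiP, fell from 1335 and 1405 to 646 and 628 CPM (log2 fold change -1.1, SE 0.09, adjusted p = 1.1e-05). HSP90B1 fell from 1369 and 1391 to 609 and 591 CPM (log2 fold change -1.2, SE 0.10, adjusted p = 1.4e-05). Their activator XBP1 fell from 263 and 287 to 126 and 113 CPM (log2 fold change -1.2, SE 0.10, adjusted p = 1.1e-05). ATF4, the factor of the amino acid response, fell from 924 and 967 to 521 and 442 CPM (log2 fold change -0.97, SE 0.16, adjusted p = 0.00065). Its targets ASNS and PSAT1 fell. ASNS fell from 424 and 414 to 118 and 118 CPM (log2 fold change -1.83, SE 0.10, adjusted p = 1.5e-06). PSAT1 fell from 202 and 200.5 to 86.3 and 90.5 CPM (log2 fold change -1.19, SE 0.09, adjusted p = 5.6e-06). With the mean of OSR1, OSR2 and EGR1 as reference, only 7 of 32 were lower and 1 higher (lower in 3 without KLF4 1 or KLF4 2 and 4 without OSR2 replicate 1, and higher in 0 without OSR2 1, OSR2 2, KLF4 1 or KLF4 2 and 3 without OSR1 replicate 2), and ASNS was not called there (log2 fold change 0.06, SE 0.09, adjusted p = 0.64). None of the 32 differed from KLF2 by edgeR's test.

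Glycolysis and hypoxia genes followed the same pattern. Of 36 tested, 21 were lower and 4 higher than in Control, with a median of -0.49. LDHA, which makes lactate, fell from 752 and 744 to 195 and 202 CPM (log2 fold change -1.91, SE 0.10, adjusted p = 1.1e-06). The lactate exporter gene SLC16A3 fell from 348 and 332 to 71.7 and 60.4 CPM (log2 fold change -2.36, SE 0.13, adjusted p = 1.5e-06). The hypoxia factor gene HIF1A fell from 835 and 741 to 468 and 493 CPM (log2 fold change -0.71, SE 0.10, adjusted p = 0.0002). Its target EGLN3 fell from 64.1 and 65.4 to 22.5 and 19.4 CPM (log2 fold change -1.63, SE 0.29, adjusted p = 0.002). In the comparison with OSR1, OSR2 and EGR1, 6 were higher and 5 lower (higher in 3 without KLF4 replicate 1, and lower in 2 without KLF4 1 or KLF4 2 and 3 without OSR2 2 or EGR1 1), with a median of 0.04, and LDHA was not called (log2 fold change 0.17, SE 0.08, adjusted p = 0.15). The 6 and 5 are 16.7% and 13.9% of the 36, near the 13% and 13.6% of all genes tested. GAPDH was not called in any of the 3 comparisons, at 2762 and 3130 CPM in Control and 2872 and 3228 CPM in KLF4 (log2 fold change 0.05, SE 0.13, adjusted p = 0.76).

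Cell cycle genes were mostly higher than in Control or not called. Of 42 tested, 23 were higher and 2 lower (lower in 1 without KLF4 replicate 2), with a median of 0.28. The replication helicase gene MCM3 rose from 68.9 and 70.7 to 115 and 124 CPM (log2 fold change 0.78, SE 0.10, adjusted p = 0.0002). The licensing factor CDT1 rose from 7.67 and 11.3 to 30.3 and 31.5 CPM (log2 fold change 1.71, SE 0.28, adjusted p = 0.0012). Thymidylate synthase, TYMS, fell from 35.2 and 35 to 19.2 and 17.6 CPM (log2 fold change -0.93, SE 0.12, adjusted p = 0.00019). The proliferation marker MKI67 was not called, at 153 and 134 CPM in Control and 122 and 119 CPM in KLF4 (log2 fold change -0.25, SE 0.13, adjusted p = 0.12). Relative to OSR1, OSR2 and EGR1 together, 4 were higher and none lower (2 without KLF4 1 or KLF4 2 and 8 without OSR1 replicate 2). The cell cycle inhibitor CDKN1A, a known target of KLF4 in mammals, rose from 24.7 and 31.6 to 74.8 and 67.5 CPM (log2 fold change 1.34, SE 0.18, adjusted p = 0.00039). It stood at 66.7 and 64.9 CPM in KLF2 and at 41.5 to 61.5 CPM in the other 6 libraries, which it exceeded (log2 fold change 0.48, SE 0.15, adjusted p = 0.037, and 0.053 to 0.26 without OSR1 1, EGR1 2, KLF4 1 and KLF4 2 in turn). The list of arrest and p53 target genes, which includes CDKN1A, was divided, with 10 of 21 higher and 4 lower. Both counts were smaller whenever a Control or KLF4 library was left out. Among them BTG2 rose from 41.9 and 47.2 to 91.7 and 87.6 CPM (log2 fold change 1.01, SE 0.10, adjusted p = 2.4e-05), and CDKN1B was not called (0.05).

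Pluripotency factors, with which KLF4 acts in reprogramming, were divided, with 5 of 13 tested (21 listed) higher and 5 lower (lower in 3 without Control 1 or Control 2). The entry POU5F1 lay at 0.0563 and 0.116 CPM in Control, 1.44 and 0.734 in KLF2 and 5.53 and 5.15 CPM in KLF4, and was called higher. Its Control values rest on few counts, and no library outside KLF4 was above 1.438 CPM. This symbol is not in the current RefSeq gene table, so its identity rests on the name in the deposited files. TFCP2L1 rose from 7.5 and 6.27 to 24.4 and 23.7 CPM (log2 fold change 1.81, SE 0.12, adjusted p = 2.6e-06) and was above KLF2, at 7.96 and 7.56 CPM (log2 fold change 1.63, SE 0.11, adjusted p = 9.3e-05). MYCN and MYC fell. MYCN fell from 18.9 and 19.8 to 6.28 and 5.87 CPM (log2 fold change -1.67, SE 0.10, adjusted p = 2e-06). MYC fell from 27.9 and 29.9 to 18.1 and 14.2 CPM (log2 fold change -0.84, SE 0.11, adjusted p = 0.0002). SOX2 was near 0 at 0.169 and 0.198 CPM in Control and 0.0406 and 0.0637 CPM in KLF4. It was called lower (adjusted p = 0.015), but not without Control replicate 2 (adjusted p = 0.081), without KLF4 replicate 1 (adjusted p = 0.093) or by DESeq2. Interferon response genes had 8 of 29 higher (5 without KLF4 replicate 2) and 8 lower (4 without Control 1 or KLF4 1). These are 27.6% each, close to the 28.7% and 25.5% of all genes tested. The RNA sensor TLR3 fell from 6.23 and 5.22 to 1.92 and 1.47 CPM (log2 fold change -1.76, SE 0.24, adjusted p = 0.00021). STAT2 rose from 4.01 and 5.35 to 11.8 and 11.8 CPM (log2 fold change 1.33, SE 0.20, adjusted p = 0.00036).

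Counts at retroviral entries, which can hold reads of the vector and of the chicken's own retroviruses, were lower at 5 of 6 entries. The envelope entry env fell from 9695 and 10340 to 2191 and 2174 CPM (log2 fold change -2.2, SE 0.09, adjusted p = 4e-07). pol fell from 8730 and 8565 to 2640 and 2624 CPM (log2 fold change -1.72, SE 0.10, adjusted p = 1.9e-06). gag fell from 7709 and 7183 to 2959 and 2907 CPM (log2 fold change -1.34, SE 0.12, adjusted p = 2e-05). Together gag, pol, env and the entry ERVK-11 took 3.468% and 3.439% of the counts in Control and 1.008% and 0.9857% in KLF4. All libraries of the other factors were below Control too. This share was 1.66% to 1.909% in the OSR1, OSR2 and EGR1 libraries and 0.8378% and 0.7655% in KLF2. The sixth entry, ERVK-25, was higher (log2 fold change 0.64, SE 0.16, adjusted p = 0.0064). None differed from KLF2 by the test, while 5 of the 6 were lower and 1 higher than the mean of OSR1, OSR2 and EGR1. The part of the vector's load in the other results was not tested. With the retroviral and ribosomal RNA entries left out before scaling, no count of calls over the whole table moved by more than 1.5 times.

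Against KLF2, its nearest relative among the factors, KLF4 libraries differed in 505 genes (2.66%), of which 377 (1.99%) were higher in KLF4 and 128 (0.674%) lower. By at least 2-fold, 182 were higher and 19 lower. These counts depended on single libraries, being 88 higher and 5 lower without KLF4 replicate 1, 142 and 16 without KLF4 replicate 2, and 132 and 37 without KLF2 replicate 2. In 310 of the 377 (82.2%) both KLF4 libraries were above all 10 other libraries, and in 91 of the 128 (71.1%) they were below all. Over all genes tested these shares were 9.03% and 7.69%. The genes were picked by their difference from the KLF2 libraries, so part of this separation follows from the choice. Under the limits on symbol, level and overlap given for the largest rises, the top rise over KLF2 after KLF4 itself was STMN2, at 3.9 and 4.03 CPM in KLF2 and 28.4 and 21.8 CPM in KLF4 (log2 fold change 2.66, SE 0.15, adjusted p = 2.1e-05). SCEL, which encodes sciellin of the cornified envelope, followed with 10 and 9.36 CPM in KLF2 and 57.3 and 50.5 CPM in KLF4 (log2 fold change 2.47, SE 0.36, adjusted p = 0.012, and 0.062 to 0.13 without KLF2 1, KLF2 2, KLF4 1 and KLF4 2 in turn), then PI16 and S100A4 (2.37 and 2.27). ITIH5, which stabilises hyaluronan, was the 1 gene of these 8 whose KLF2 libraries lay below Control, at 5.75 and 6.67 against 9.34 and 9.2 CPM, with 32.1 and 22 CPM in KLF4 (log2 fold change 2.12, SE 0.17, adjusted p = 0.00016). KDR rose over KLF2 (log2 fold change 2.06, SE 0.10, adjusted p = 5.7e-06), as did CD55 (log2 fold change 1.96, SE 0.19, adjusted p = 0.00063) and MOXD1, a monooxygenase-like gene, from 12.9 and 10.3 to 45.9 and 41.9 CPM (log2 fold change 1.92, SE 0.14, adjusted p = 0.00012).

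Apart from KLF2 itself (log2 fold change -5.82, SE 0.28, adjusted p = 0.00014), the falls under the same limits were smaller than those rises, and genes below 5 CPM on average are not ranked here. GCHFR, which regulates biopterin synthesis, lay at 11.9 and 12.4 CPM in KLF2 and 6.14 and 6.35 CPM in KLF4 (log2 fold change -0.96, SE 0.14, adjusted p = 0.0057, and 0.059 to 0.096 without KLF4 1 and KLF4 2 in turn), and CHRNA2, a nicotinic receptor gene, at 7.51 and 5.89 CPM in KLF2 and 3.1 and 3.93 CPM in KLF4 (log2 fold change -0.93, SE 0.21, adjusted p = 0.047, and 0.078 to 0.41 without KLF2 1, KLF2 2, KLF4 1 and KLF4 2 in turn). The proteoglycan gene PODN lay at 135 and 173 CPM in KLF2 and 87.1 and 84.1 CPM in KLF4 (log2 fold change -0.85, SE 0.10, adjusted p = 0.0022). Of the striated muscle genes, MYOZ2 lay at 11.9 and 14.6 CPM in KLF2 and 7.44 and 7.88 CPM in KLF4 (log2 fold change -0.79, SE 0.13, adjusted p = 0.0096, and 0.072 to 0.13 without KLF2 2, KLF4 1 and KLF4 2 in turn) and SYNPO2L at 14.1 and 11.1 CPM in KLF2 and 7.21 and 7.72 CPM in KLF4 (log2 fold change -0.75, SE 0.12, adjusted p = 0.0088, and 0.067 to 0.13 without KLF4 1 and KLF4 2 in turn). C14orf180 and the serotonin transporter gene SLC6A4 were lower, with log2 fold changes of -0.73 (adjusted p = 0.076 to 0.13 without KLF2 2, KLF4 1 and KLF4 2 in turn) and -0.73 (adjusted p = 0.097 without KLF4 replicate 1). For MYOZ2, SYNPO2L, PODN, GCHFR and C14orf180 the KLF4 libraries were the lowest of all 12.

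With the mean of OSR1, OSR2 and EGR1 as reference, the largest rises under the same limits, after KLF4 itself, were LOXL4 (log2 fold change 4.32, SE 0.24, adjusted p = 1.5e-06), KRT6A (log2 fold change 4.29, SE 0.55, adjusted p = 0.00039), MOXD1 (log2 fold change 3.91, SE 0.12, adjusted p = 6e-09) and ZBTB7C (log2 fold change 3.86, SE 0.13, adjusted p = 1.4e-08). PI16, SCEL, the calcium channel gene TRPV4 and the transporter gene SLC45A3 completed the 8, with log2 fold changes of 3.64, 3.32, 3.47 and 3.26. TRPV4 lay at 32.4 and 35.2 CPM in Control, 92.5 and 82.8 in KLF4, 93.8 and 64.1 in KLF2 and 3.12 to 32.6 CPM in the other 6, so KLF2 and KLF4 libraries overlapped above all others. Under these limits the largest falls beyond the overexpressed OSR1 and OSR2 were SYNDIG1 (log2 fold change -2.65, SE 0.22, adjusted p = 2.1e-05), IRF4 (log2 fold change -2.41, SE 0.15, adjusted p = 3.1e-06), RXFP1 and PTPRO (log2 fold change -2.39, SE 0.13, adjusted p = 8.4e-07). IRF4 lay at 2.06 and 2.48 CPM in Control and at 9.562 to 12.46 CPM in the 4 OSR1 and OSR2 libraries, and PTPRO, a tyrosine phosphatase gene, at 9.45 and 8.25 CPM and 19.97 to 24.72 CPM. The EGR1 libraries were lower, with IRF4 at 1.89 and 2.17 CPM against 1.07 and 1.26 CPM in KLF4. PTPRO lay at 5.24 and 4.08 CPM in EGR1 and 2.5 and 2.42 CPM in KLF4. SYNDIG1 lay at 9.728 to 12.83 CPM in OSR1 and OSR2, 3.525 and 4.933 CPM in EGR1 and 0.93 and 1.61 CPM in KLF4. A test against each group was not made. The 8 were completed by TMEM163 (-2.35) and CCBE1, a gene of lymphatic vessel growth, at 10.8 to 26 CPM in these 6 libraries and 3.72 and 3.76 CPM in KLF4 (log2 fold change -2.28, SE 0.09, adjusted p = 1.2e-07). CCBE1 was lowest in the KLF4 libraries, and below KLF2 too (log2 fold change -0.71, SE 0.11, adjusted p = 0.0072, and 0.073 to 0.1 without KLF4 1 and KLF4 2 in turn).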

How the data were processed

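RNA-seq read counts per gene were deposited by the authors as 1 table for each of the 12 libraries. Per the labels, libraries were made with a stranded mRNA kit and read as paired 50-base reads. Per the submitters' processing notes, the tools included TopHat2, featureCounts, SAMtools and DESeq2, with the chicken build galGal4. Versions and settings are not given in the sources used. The deposited values are raw counts, whole numbers that sum to 51233721 to 106079374 per library.

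The analysis ran under R 4.3.3, with the package edgeR 4.0.16. Features were kept by filterByExpr with a minimum count of 10, which left 18979 of 21350. Library sizes were scaled by TMM factors (0.9521 to 1.041), and CPM values use these sizes. All 12 libraries entered 1 quasi-likelihood fit with a term for each of the 6 groups, robust and with 6 residual degrees of freedom, and the common biological coefficient of variation was 0.128. P-values are two-sided and adjusted by the Benjamini-Hochberg method over all genes tested. The fits were first run on simulated counts in which some genes were changed in the KLF4 libraries alone. That setting differs from these data, where the Control libraries also stood apart, and its outcome is not reported here. A SE given beside a log2 fold change comes from the same fit. Each adjusted p given for a left-out library comes from a fit without it.

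The members and gene lists were chosen with earlier results of these data known. The 33 lists hold 1095 genes, of which 1022 were found in the tables (13 by an older symbol) and 981 were tested. Names were compared with the RefSeq gene table for GRCg7b, where 13763 symbols matched directly and 308 through a synonym, and no coordinates were taken from it. Named genes are the 15 largest rises and falls against Control and the 8 largest per direction in the other comparisons, with a symbol in that table, a mean of at least 5 CPM and groups that do not overlap, every tested member of the KLF4 family, and up to 5 members of each list by adjusted p plus those needed to describe its roles. Some genes that this rule names are not reported here. The counts over OSR1 replicates and over all other libraries, and the features given without a symbol, were chosen after their values were seen. Alternatives were DESeq2 1.42.0, other scaling, no filter, only the groups compared, a replicate block, a 1.5-fold threshold, thinned counts, 14 retroviral and ribosomal RNA rows left out before scaling, and each library left out in turn. Figures were drawn with matplotlib 3.10.9.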

Additional observations from a re-analysis of the deposited data

How the results depend on the processing

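The counts of calls against Control stayed within 1.5 times of 5452 higher and 4832 lower under every alternative but one. A test against a 1.5-fold change called 2367 higher and 1483 lower, and leaving out each library gave 3876 to 4689 higher and 3263 to 3781 lower. Against KLF2 (377 and 128), the 1.5-fold test called 69 and 3, a fit of only the groups compared 244 and 14, and DESeq2 542 and 239, while leaving out each library gave 88 to 366 and 5 to 105. Against the mean of OSR1, OSR2 and EGR1, the 1.5-fold test called 680 and 494, and leaving out each library gave 1280 to 3200 and 1223 to 2773. The log2 fold change of KLF4 itself ran from 6.04 without KLF4 replicate 1 to 6.18 without Control replicate 2. With the replicate number as a block, 5284 were higher and 4623 lower than in Control, 302 and 80 against KLF2 and 2273 and 2337 against the other groups, and same-numbered libraries deviated together with r of -0.29 to 0.222 over 15 pairs of groups, so the numbers were not taken as pairing. No called value of a named gene changed sign in the alternatives run. Values near 0 did, among them COL2A1 (-0.16 to 0.23), SOX9 (-0.05 to 0.17) and KLF2 (-0.40 to 0.14). With library totals alone, the median of the glial, neuronal and pigment cell list went from 0.03 to -0.02 and that of the pluripotency list from 0.03 to -0.03. Under the same scaling the median of all genes tested went from -0.0057 to -0.0574. The cause of the sign changes of single genes was not tested. With 2 libraries in each group, calls rest on a spread shared over all groups.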

Other observations

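Further differences of KLF4 from KLF2 lay outside the gene lists, and were chosen after their values were seen. Several are genes known from epithelia. UPK1B, which encodes a uroplakin of the bladder lining, lay at 4.42 and 3.5 CPM in KLF2 and 14.2 and 9.53 CPM in KLF4 (log2 fold change 1.58, SE 0.32, adjusted p = 0.042, and 0.07 to 0.29 without KLF2 1, KLF2 2, KLF4 1 and KLF4 2 in turn), with 5.4 and 5.37 CPM in Control. TMPRSS11F, a membrane serine protease gene, lay at 3.54 and 3.55 CPM in KLF2 and 10.5 and 9.17 CPM in KLF4 (log2 fold change 1.47, SE 0.27, adjusted p = 0.019, and 0.079 to 0.16 without KLF2 1, KLF2 2, KLF4 1 and KLF4 2 in turn). LGALS3, the gene of galectin 3, lay at 7.08 and 6.89 CPM in KLF2 and 20.2 and 13.3 CPM in KLF4 (log2 fold change 1.26, SE 0.18, adjusted p = 0.0045), and EZR, which links actin to the membrane, at 26.9 and 23.5 CPM in KLF2 and 58.6 and 54.8 CPM in KLF4 (log2 fold change 1.17, SE 0.13, adjusted p = 0.0012). In each of these the KLF4 libraries were the higher of both groups without overlap.

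The genes of this paragraph differed from Control, are in none of the lists and were likewise chosen after their values were seen, so they stand as single genes. MTHFD2 fell from 118 and 127 to 37.5 and 33.7 CPM (log2 fold change -1.78, SE 0.18, adjusted p = 8.7e-05). ALDH1L2 fell from 24.3 and 24 to 6.68 and 7.06 CPM (log2 fold change -1.81, SE 0.12, adjusted p = 3e-06). GPT2 fell from 115 and 112 to 24.8 and 27.5 CPM (log2 fold change -2.12, SE 0.12, adjusted p = 1.5e-06). ALDH18A1, which starts proline synthesis, fell from 1305 and 1265 to 335 and 347 CPM (log2 fold change -1.91, SE 0.10, adjusted p = 1.1e-06). GLUL, which makes glutamine, rose from 13.5 and 12.8 to 107 and 103 CPM (log2 fold change 3.0, SE 0.09, adjusted p = 7.6e-08). The receptor gene AXL and the growth factor gene PGF rose by 2.9 and 3.09 on the log2 scale.

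The neuropeptide gene AVP lay at 0.0563 and 0.0495 CPM in Control, from 3 counts in each library, at 1.56 and 1.38 CPM in KLF2 and at 7.6 and 7.78 CPM in KLF4. The entry uPROT_001676, which has no gene name, lay at 34.9 and 5.98 CPM in Control and at 0 in the other 10 libraries. The entries COI, at 7.76 and 1.42 CPM, and ADH4, at 2.57 and 0.561 CPM in Control, were likewise at 0 elsewhere. In all 3 of these, Control replicate 1 was several times above Control replicate 2.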
